A study of Mus musculus with 4 samples.

Results

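The basement membrane is the thin protein sheet on which the alveolar epithelium sits. A set of 9 genes, listed as laminins, type IV collagens and basement membrane, was followed here across 4 libraries of sorted alveolar type II (AT2) cells of the mouse, the surfactant-producing cells that also renew the alveolar surface. They were Lama3, Lamb3, Lama5, Col4a3, Col4a4, Npnt, Itga3, Sparc and Timp3, and all 9 were found by symbol among the 17117 genes of the count table. The list uses no measured value as a threshold, but it was drawn up with earlier results of these data known.

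Laminins are trimers of 1 α, 1 β and 1 γ chain that cells secrete and that bind integrins, the transmembrane receptors that anchor a cell to its matrix. Type IV collagen is built either from the α1 and α2 chains, the form of most basement membranes, or from the α3, α4 and α5 chains, the form of the kidney filter and of parts of the alveolar wall. Linker and matricellular proteins connect or modify this scaffold, and proteases and their inhibitors set how fast it is turned over.

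The 4 groups, each 1 library, were null PNX, null sham, control PNX and control sham. Null mice carried the alleles Cdc42flox/-, Sftpc-CreER and Rosa26-mTmG, and control mice carried Cdc42flox/+ with the same driver and reporter. All mice received 4 doses of tamoxifen, so the control cells too had Cre activity and, after recombination, 1 floxed Cdc42 allele deleted. Sftpc-CreER acts in cells that express surfactant protein C, and the reporter turns those cells GFP+. PNX (pneumonectomy) is the surgical removal of part of the lung, after which the remaining lung grows. PNX cells were taken on day 21 after surgery, sham cells came from sham-treated mice, and the labels give postnatal day 80 for all 4 groups. Cell suspensions came from lungs treated with neutral protease and DNase, DAPI served to mark dead cells, and the GFP+ cells were read by 3′ tags in a droplet assay. The comparisons ask how AT2 cells lacking Cdc42, a small GTPase of the actin cytoskeleton, differ from control cells at rest and after PNX. How many mice each library pools is not stated in the labels.

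Alveolar cells were those with at least 2% of their unique molecular identifiers (UMIs, counts of captured RNA molecules) from Sftpc, or at least 1 UMI of Cldn4, a junction gene of the transitional state between AT2 and AT1 cells, and with Ptprc, Pecam1 and Col1a2 at 0. These were 1802 null PNX, 2564 null sham, 1932 control PNX and 1635 control sham cells, with 20712932, 14406357, 9910233 and 8099735 UMIs. The median depth was 10792.5 UMIs in null PNX, against 5202 in null sham, 4873 in control PNX and 4823 in control sham. A Cldn4 UMI was present in 974 null PNX, 69 null sham, 3 control PNX and 0 control sham cells. The summed level of 8 AT2 markers was 104266, 123025, 168178 and 179584 CPM (UMIs of a gene scaled to a fixed library total) in the same order. Much of that sum is Sftpc, which chose the cells, so it is no check of the label, and the other 7 were detected in each library. Among the 3 club cell markers the sum was 5469 CPM in null PNX, 4743 in null sham, 1052 in control PNX and 5143 in control sham. Counts with cells low in Scgb1a1, a club cell gene, are given beside the comparisons. The targeted gene Cdc42 had 408, 265, 225 and 184 CPM in the same order, but the labels do not say which part of it is floxed, and a 3′ tag outside that part does not report the deletion. Across libraries 54 barcode sequences occurred more than once, which the library ending separates.

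Levels below are counts summed over the alveolar cells of a library, in CPM, with exact 95% Poisson intervals. Ratios are CPM ratios with exact 95% intervals from the binomial distribution of both counts. All intervals cover counting error only, and with 1 library per group there is no replicate check, no test and no p-value. In the sums, fewer cells expressing a gene and less RNA per cell cannot be told apart. The median ratio of the 7051 genes with a mean of at least 10 CPM was 1.17 in null PNX over null sham, 1.10 in control PNX over control sham, 1.13 in null sham over control sham, and for null PNX over control PNX it was 1.18. A gene is called higher or lower when its ratio, divided by that median, passed 1.5-fold, and relative log2 ratios below are taken after this division. Of the 9 genes, 8 reached the level for a call, and Col4a3 did not.

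Lama3, Lamb3 and Sparc were the members that were higher after PNX in both genotypes, and Col4a4 and Npnt were lower in null cells with and without PNX. Counted by comparison, 3 members (Lama3, Lamb3 and Sparc) were higher and 2 (Col4a4 and Npnt) lower in null PNX over null sham, where 16.0% of all genes tested were called higher and 20.3% lower. In control PNX over control sham the same 3 were higher and 0 lower, where 3.55% of all genes were higher and 3.09% lower. In null sham over control sham 3 (Lama3, Lamb3 and Timp3) were higher and 2 (Col4a4 and Npnt) lower, where 7.91% and 6.69% of all genes were. In null PNX over control PNX 5 (Lama3, Lamb3, Lama5, Sparc and Timp3) were higher and 2 (Col4a4 and Npnt) lower, where 20.8% and 21.7% of all genes were. Comparisons that share a library are not independent of each other. The median relative log2 ratio of the 8 members was 0.33, 0.51, 0.46 and 0.74 in the order of these comparisons, where the median over all genes tested is 0 by construction. With cells limited to 5 Scgb1a1 UMIs or fewer, an alternative chosen after seeing the data, the calls above held but for Sparc in null PNX over control PNX. This limit left 372 null PNX, 264 null sham, 1656 control PNX and 471 control sham cells. It is set on raw UMIs and so favours shallow cells, and it is not an even check across libraries. That alternative added Itga3 as higher in null PNX over null sham and over control PNX, and Lama5 as higher in null sham over control sham.

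**Figure D1:**
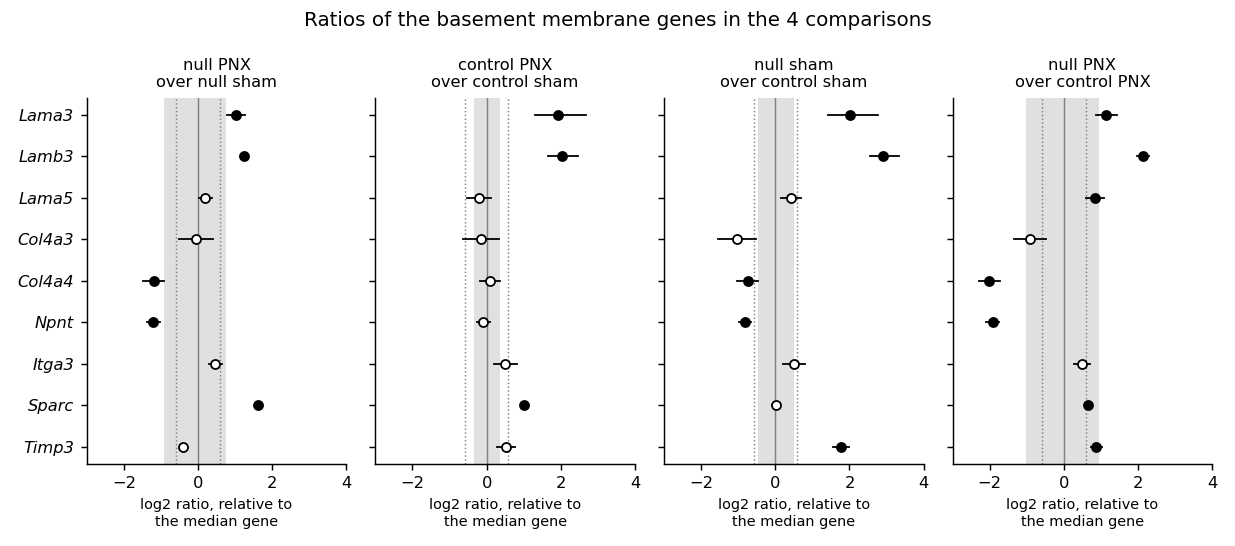
Points give the log2 CPM ratio of each gene in the 4 comparisons, relative to the median of all genes tested, with exact 95% intervals that cover counting error only. Filled points are past 1.5-fold (dotted lines), Col4a3 was too low for a call, and the grey band spans the 10th to 90th percentile of all genes tested. Lama3 and Lamb3 lie right of the band in all 4 panels, at 2.91 for Lamb3 in null sham over control sham, and Col4a4 and Npnt lie left of it wherever null is on top.

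Lama3 and Lamb3 encode the α3 and β3 chains of a laminin that anchors epithelia through integrin α3β1 and through hemidesmosomes. Lamb3 lies at chr1:193207699-193343878 on the plus strand (mm10, GENCODE M21). The RefSeq promoter table (GRCm38.p6) holds windows from 250 bases before to 50 bases after a start site for 7 of the 9 genes, 10 windows in all. One Lamb3 window, at chr1:193301993-193302292 on the plus strand, is shown because Lamb3 had the widest span of levels of the 9 genes. It lies inside the gene, away from the gene start given above. Capitals mark the letters GGAATG, read on either strand, a motif known for TEAD factors. This motif was in 1 of the 10 member windows and in 14.7% of all 32851 windows of this length, and a match of letters is not a binding site. Another Lamb3 window, chr1:193301744-193302043, overlaps the one shown and lacks this motif.
Lamb3: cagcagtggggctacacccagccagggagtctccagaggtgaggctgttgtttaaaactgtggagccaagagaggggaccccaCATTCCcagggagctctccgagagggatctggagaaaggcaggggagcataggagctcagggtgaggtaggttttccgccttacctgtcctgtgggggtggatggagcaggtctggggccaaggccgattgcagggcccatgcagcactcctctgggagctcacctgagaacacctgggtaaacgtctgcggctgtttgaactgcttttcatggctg

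Lamb3 had 175 CPM (95% interval 170–181) in null PNX, 63.4 (59.3–67.6) in null sham, 33.8 (30.3–37.6) in control PNX and 7.41 (5.65–9.54) in control sham. The 4 intervals did not overlap, and the highest library was 23.7 times the lowest. Lama3 had the same order, with 30.3 CPM (28.0–32.8) in null PNX, 12.7 (10.9–14.7) in null sham, 11.6 (9.58–13.9) in control PNX and 2.72 (1.70–4.11) in control sham. Lama3 lies at chr18:12333819-12583013 on the plus strand, and both genes overlap other annotated genes on both strands, so single tags there could belong to a neighbour. For Lama3 the intervals of null sham and control PNX overlapped, and control sham rested on 22 UMIs.

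After PNX, Lama3 was 2.39-fold and Lamb3 2.77-fold higher in the null library than in null sham, and 4.27-fold and 4.56-fold higher in the control library than in control sham. The intervals of the control ratios were 2.69–7.08 for Lama3 and 3.46–6.11 for Lamb3. Without PNX, null sham was above control sham by 4.68-fold for Lama3 (3.00–7.65) and 8.56-fold for Lamb3 (6.58–11.3). After PNX, null was above control by 2.61-fold for Lama3 (2.14–3.22) and 5.19-fold for Lamb3 (4.64–5.82). Both genes were called higher in all 4 comparisons, and each Lamb3 call held in all 16 alternatives for which ratios were recomputed. The Lama3 calls held in 14 or 15 of the 16. Over Cldn4-negative cells they were lost in null PNX over null sham and over control PNX, at relative log2 ratios of 0.25 and 0.29. Lama3 reached a mean of 10 CPM only with null PNX counted.

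The share of cells with a UMI shows how these chains were spread over cells. With each cell thinned to 2000 UMIs, Lamb3 was seen in 29.9% of null PNX, 12.2% of null sham, 6.60% of control PNX and 0.966% of control sham alveolar cells. Immune cells of the same libraries, which should lack it, had a Lamb3 UMI in 9.60%, 9.04%, 0% and 0% of cells at the same depth. The null sham shares of alveolar cells (95% interval 10.9–13.6%) and immune cells (5.26–14.3%) overlapped, so at this depth they were not clearly apart. Summed over unthinned cells, null sham Lamb3 had 63.4 CPM in alveolar cells and 40.3 CPM (28.2–55.8) in immune cells. Of the 198 null PNX immune cells, 151 had Cldn4 at 0, with Lamb3 at 29.9 CPM, against 78.2 CPM in all 198. Lama3 was seen in 5.83%, 2.42%, 2.20% and 0.515% of alveolar cells in the order of libraries above, and in 2.02%, 0%, 0% and 0% of immune cells. Unthinned, the Lamb3 shares were 73.3%, 28.4%, 15.1% and 3.49%, and those of Lama3 were 22.5%, 6.44%, 5.64% and 1.28%.

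**Figure D2:**
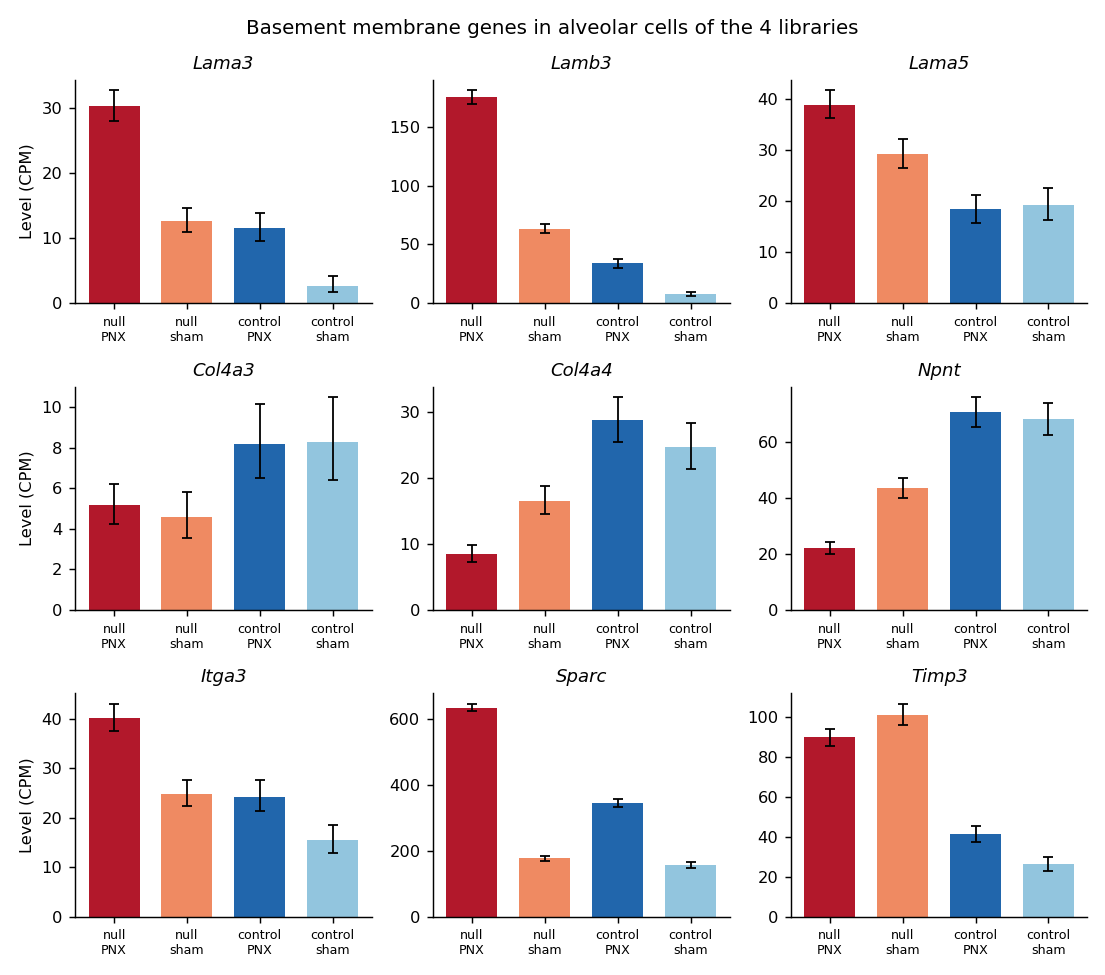
Bars give the level of each of the 9 genes in CPM over alveolar cells of null PNX, null sham, control PNX and control sham, 1 library each, and error bars are exact 95% Poisson intervals. Lama3 and Lamb3 are highest in null PNX and lowest in control sham, at 175 and 7.41 CPM for Lamb3, while Col4a4 and Npnt are lowest in null PNX, at 8.45 and 22.1 CPM.

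Lama5, the α5 chain of the laminin of mature alveolar basement membranes, varied less. It lies at chr2:180176373-180225859 on the minus strand and had 38.9 CPM in null PNX, 29.2 in null sham, 18.4 in control PNX and 19.3 in control sham. The control libraries did not differ beyond their intervals (15.8–21.2 and 16.4–22.5). Its relative log2 ratio was 0.84 in null PNX over control PNX, the only comparison in which it passed 1.5-fold, and 0.42 in null sham over control sham.

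Among the 10 laminin chains counted, members included, 5 reached 10 CPM, and of these 2 were called higher and 0 lower in null PNX over null sham, 2 and 0 in control PNX over control sham, 2 and 0 in null sham over control sham, and 3 and 0 in null PNX over control PNX. The chains called were all members, so these counts repeat calls given above. Over all genes tested, 16.0% were higher and 20.3% lower in the first of these comparisons, and 3.55% and 3.09% in the second. The shares were 7.91% and 6.69% in the third, and 20.8% and 21.7% in the last. Lamb2, the β2 partner of the α5 chain, had 40.2, 43.2, 46.7 and 43.7 CPM in null PNX, null sham, control PNX and control sham, and Lamc1, the γ1 chain shared by most laminins, had 21.0, 23.2, 19.3 and 18.4 CPM. Neither Lamb2 nor Lamc1 was called in any of the 4 comparisons.

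Col4a3 and Col4a4 encode the α3 and α4 chains of type IV collagen and are a head-to-head pair on chromosome 1. Col4a3 lies at chr1:82586921-82722059 on the plus strand and Col4a4 at chr1:82448423-82586849 on the minus strand, and their annotated starts are 72 bases apart. The RefSeq window of Col4a4, chr1:82586800-82587099 read on the minus strand, is shown because it covers the starts of both genes. Capitals mark the 179 bases that lie within the annotated Col4a3 gene. The searched letters were TGANTCA, a motif known for AP-1 and in 7.81% of all windows, and GGAATG. The others were the GC box GGGCGG and the core CAAGTG known for NKX2-1, which is in 13.6% of all windows. None of these was found in the Col4a4 window on either strand.
Col4a4: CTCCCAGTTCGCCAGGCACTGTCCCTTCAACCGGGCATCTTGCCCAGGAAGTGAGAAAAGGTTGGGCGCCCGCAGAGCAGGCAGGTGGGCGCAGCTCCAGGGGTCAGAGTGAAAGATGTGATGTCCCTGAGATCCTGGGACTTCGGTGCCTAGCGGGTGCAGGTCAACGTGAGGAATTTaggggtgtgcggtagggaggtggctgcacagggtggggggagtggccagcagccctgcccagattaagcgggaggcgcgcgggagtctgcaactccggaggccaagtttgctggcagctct

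Col4a4 had 8.45 CPM (7.24–9.80) in null PNX, 16.6 (14.6–18.8) in null sham, 28.8 (25.5–32.3) in control PNX and 24.7 (21.4–28.4) in control sham. Both null libraries lay below both control libraries, and the control libraries overlapped. It was called lower in null PNX over null sham, with a ratio of 0.509 (0.417–0.622). Its ratio was 0.672 (0.554–0.815) in null sham over control sham, and for null PNX over control PNX it was 0.294 (0.242–0.356), both called lower. Col4a3 was low throughout, at 5.17 CPM (4.23–6.24) in null PNX, 4.58 (3.54–5.83) in null sham, 8.17 (6.49–10.2) in control PNX and 8.27 (6.41–10.5) in control sham. The null libraries were again below the control libraries, with a ratio of 0.632 (0.469–0.854) after PNX and 0.554 (0.388–0.790) without PNX, but PNX and sham did not differ beyond their intervals in either genotype. The relative log2 ratio of null PNX over control PNX was -0.91 over all alveolar cells. Over cells of 4000 to 8000 UMIs only, 400 of them in null PNX, it was 0.11. With each cell thinned to 2000 UMIs it was -1.82. These ways of matching depth differed in sign, and the part of depth in this difference was not tested.

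Col4a1, the α1 chain, had 198 CPM in null PNX, 107 in null sham, 141 in control PNX and 86.4 in control sham, and Col4a2, the α2 chain, had 107, 63.7, 74.0 and 56.5 CPM. Both were highest in null PNX, where Col4a4 was lowest, and Col4a1 was called higher in null PNX over null sham. Col4a5, the α5 partner of the α3 and α4 chains, had 6.86, 3.68, 6.86 and 5.06 CPM, below the level for a call.

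**Figure D3:**
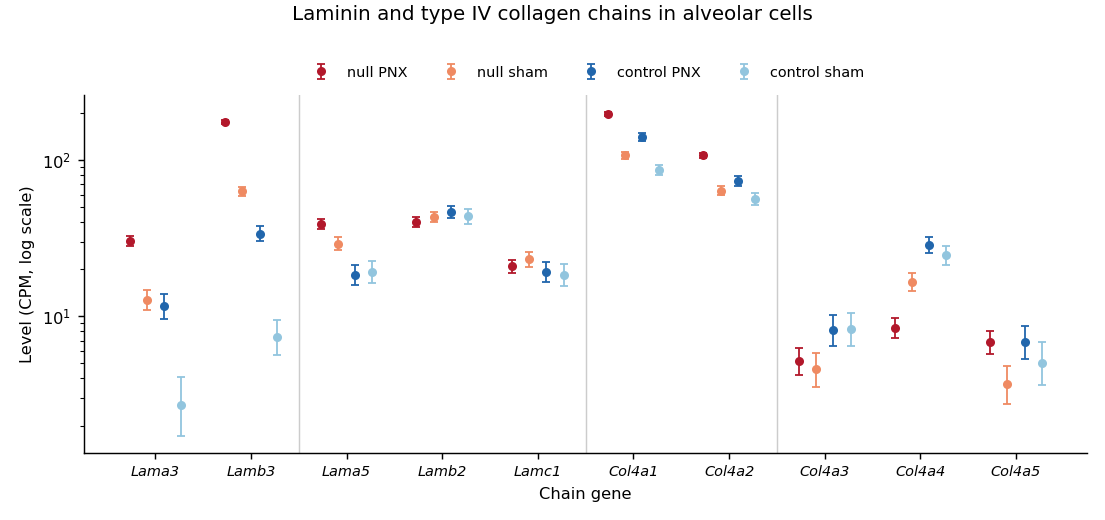
Points give CPM on a log scale over alveolar cells of the 4 libraries for 5 laminin chains and 5 type IV collagen chains, and bars are exact 95% Poisson intervals. Lama3 and Lamb3 descend in one order of libraries, Lamb2 and Lamc1 stay near one level, and Col4a4 is lowest in null PNX at 8.45 CPM while Col4a1 is highest there at 198 CPM.

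Npnt encodes nephronectin, a secreted matrix protein that binds integrin α8β1. It lies at chr3:132881745-132950291 on the minus strand. Npnt had 22.1 CPM (20.1–24.2) in null PNX, 43.5 (40.2–47.1) in null sham, 70.7 (65.6–76.2) in control PNX and 68.3 (62.7–74.2) in control sham. The order of libraries was that of Col4a4, with overlap between the control libraries only. It was called lower in null PNX over null sham, with a ratio of 0.507 (0.448–0.573). The ratio was 0.637 (0.568–0.716) in null sham over control sham, and for null PNX over control PNX it was 0.312 (0.277–0.351), both also called lower. In control PNX over control sham its ratio was 1.04, with an interval of 0.925–1.16. Its receptor chain Itga8 was under 0.3 CPM in all 4 libraries. The RefSeq window at the Npnt start, chr3:132950242-132950541 on the minus strand, is shown because Npnt and Col4a4 had the same order of libraries. Capitals mark the GC box, GGGCGG on either strand, which was found in 5 of the 10 member windows and in 35.7% of all windows.
Npnt: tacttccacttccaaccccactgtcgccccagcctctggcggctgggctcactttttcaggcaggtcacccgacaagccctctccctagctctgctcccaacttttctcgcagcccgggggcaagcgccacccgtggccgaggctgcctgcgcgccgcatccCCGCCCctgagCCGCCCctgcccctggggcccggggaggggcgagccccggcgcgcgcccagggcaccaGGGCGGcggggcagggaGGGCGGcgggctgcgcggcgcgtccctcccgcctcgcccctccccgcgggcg

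Itga3 encodes the α3 chain of integrin α3β1, a receptor of AT2 and AT1 cells for laminins. It lies at chr11:95044474-95076801 on the minus strand. Itga3 had 40.2 CPM (37.5–43.0) in null PNX, 24.9 (22.4–27.6) in null sham, 24.3 (21.3–27.6) in control PNX and 15.6 (13.0–18.5) in control sham. Null sham and control PNX overlapped and the other libraries did not. It was 1.61-fold higher in null PNX over null sham, 1.56-fold in control PNX over control sham, 1.60-fold in null sham over control sham, and for null PNX over control PNX it was 1.65-fold, but after division by the median gene no ratio passed 1.5-fold. Over cells of 4000 to 8000 UMIs its relative log2 ratio of null PNX over control PNX was 1.28, against 0.48 over all alveolar cells. Of the 12 receptors measured, 5 were called higher and 0 lower in null PNX over null sham, 1 and 0 in control PNX over control sham, 3 and 2 in null sham over control sham, and 8 and 2 in null PNX over control PNX. Over all genes tested, 16.0% were higher and 20.3% lower in the first of these comparisons, 3.55% and 3.09% in the second, 7.91% and 6.69% in the third, and 20.8% and 21.7% in the last. Itgb6, the β6 chain of the integrin that activates latent TGF-β, had 58.4 CPM in null PNX, against 5.07 in null sham, 5.15 in control PNX and 4.07 in control sham. Itga6, the α6 chain of a second laminin receptor, had 63.3 CPM in null PNX, against 12.8, 11.4 and 11.2. Itgb1, the β1 partner of Itga3, had 206, 133, 107 and 84.6 CPM, in the order of Itga3. Dag1, which encodes dystroglycan, a laminin receptor that is not an integrin, was lower in both null libraries, at 59.1 and 70.2 CPM in null PNX and null sham, against 117 and 108 CPM in control PNX and control sham.

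Sparc encodes a matricellular protein that binds collagen and takes part in the assembly of collagen IV. It lies at chr11:55394500-55423183 on the minus strand. Sparc had 635 CPM (624–646) in null PNX, 177 (170–184) in null sham, 345 (333–356) in control PNX and 156 (147–165) in control sham. Both PNX libraries were above both sham libraries, which only Sparc showed among the 9 genes. After PNX it was 3.58-fold higher in null (3.43–3.74) and 2.21-fold higher in control (2.07–2.36). Null sham over control sham was 1.14 (1.06–1.22), and null PNX over control PNX was 1.84 (1.78–1.91), called higher at a relative log2 ratio of 0.64, close to the threshold of 1.5-fold. Over cells of 4000 to 8000 UMIs only, a depth all libraries share, that value was 0.18 and was not called. With each cell thinned to 2000 UMIs, a Sparc UMI was seen in 59.7% of null PNX, 28.3% of null sham, 47.2% of control PNX and 24.0% of control sham alveolar cells, against 9.09%, 4.52%, 9.33% and 3.28% of immune cells. Unthinned, the alveolar shares were 90.2%, 52.7%, 71.3% and 45.7%. The cell with most Sparc UMIs held 1.04% of the null PNX total, so the sum did not rest on single cells.

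Timp3 encodes a matrix-bound inhibitor of metalloproteinases. It lies at chr10:86300372-86349506 on the plus strand, within Syn3 on the other strand. Timp3 had 89.8 CPM (85.7–93.9) in null PNX, 101 (96.1–107) in null sham, 41.4 (37.5–45.6) in control PNX and 26.3 (22.9–30.1) in control sham. Both null libraries were above both control libraries, and null sham was the highest. It was 3.85-fold higher in null sham than in control sham (3.33–4.46) and 2.17-fold higher in null PNX than in control PNX (1.95–2.42), and both were past the threshold. PNX over sham had a ratio of 0.887 (0.828–0.9504) in null and of 1.57 (1.33–1.87) in control, neither past 1.5-fold after division by the median gene. Timp2, another inhibitor of the family, had 248, 83.1, 44.3 and 24.9 CPM in null PNX, null sham, control PNX and control sham, and was called higher in all 4 comparisons.

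Within null PNX the members could be compared between cells that carried a Cldn4 UMI (974, median 12072.5 UMIs) and cells that did not (828, median 9889). Cldn4 is a gene of the transitional state, so this split sets the more transitional cells against the others of one library, and the cells are not replicates. Lama3 had 40.2 CPM in Cldn4-positive and 16.0 CPM in Cldn4-negative cells, a ratio of 2.51 (2.07–3.07). Timp3 had 113 against 56.0 CPM and Itga3 had 50.3 against 25.6 CPM. These 3 genes had ratios of 1.97 or more, larger than those of Lamb3, at 1.29 (1.201–1.38), Lama5, at 1.33, and Sparc, at 1.26. Col4a3 had 6.20 against 3.67 CPM, with an interval of the ratio of 1.10–2.65. Col4a4 had 9.62 against 6.75 CPM, with an interval of the ratio of 1.03–1.99, and Npnt was the one member that was lower, at 19.6 against 25.6 CPM, with a ratio of 0.768 (0.637–0.928). Of the 974 Cldn4-positive cells, 406 entered through Cldn4 alone, with Sftpc under 2%, whereas each Cldn4-negative cell had to pass that level, so the Sftpc levels of both groups are set by the rule and are not compared. Over the 69 Cldn4-positive and 2495 Cldn4-negative cells of null sham, Lama3 had 26.6 against 12.1 CPM, a ratio of 2.19, and Timp3 had 195 against 97.4 CPM, a ratio of 2.00. Itga3 had a ratio of 1.22 there, with an interval of 0.702–1.98 that includes 1. Lama5, at 1.89 (1.26–2.74), and Sparc, at 1.60 (1.35–1.88), had larger ratios than in null PNX.

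When Cldn4-negative cells alone were compared between libraries, Lamb3 and Sparc kept most of their ratios and Lama3 did not. In null PNX over null sham, Lamb3 was 2.39-fold (2.19–2.61) and Sparc 3.17-fold (3.02–3.33) higher, while Lama3 was 1.32-fold (1.04–1.66) higher, which did not pass the threshold. Timp3 was lower there, at a ratio of 0.575 (0.517–0.639) and past the threshold. In null PNX over control PNX, Lama3 had a ratio of 1.39 (1.07–1.80), Itga3 of 1.05 (0.870–1.27), Timp3 of 1.35 (1.18–1.55) and Sparc of 1.60 (1.53–1.67), none of them past the threshold. Col4a4 and Npnt stayed lower, at 0.234 (0.173–0.312) and 0.361 (0.308–0.421). The null sham over control sham ratios hardly moved, since 69 null sham cells and 0 control sham cells were left out.

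**Figure D4:**
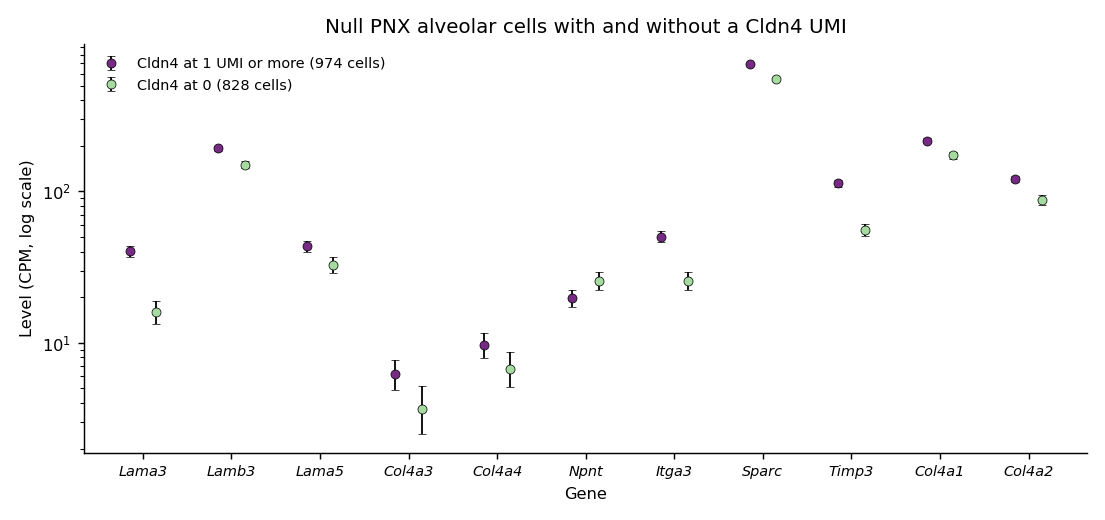
Points give CPM on a log scale in null PNX alveolar cells with at least 1 Cldn4 UMI (974 cells) and with none (828 cells), and bars are exact 95% Poisson intervals that cover counting error only. Lama3, Itga3 and Timp3 are further apart than Lamb3 and Sparc, and Npnt is the one gene with the lower level in Cldn4-positive cells, 19.6 against 25.6 CPM.

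A second split used Kcnk2, a potassium channel gene that an earlier clustering of these data had placed beside Npnt and Col4a4, so that what follows is a description. Npnt was higher in cells with a Kcnk2 UMI than in cells without one in both control libraries, at 124 against 62.1 CPM in control PNX (246 and 1686 cells) and 144 against 62.0 CPM in control sham (115 and 1520 cells). In null PNX the levels were 31.7 against 20.5 CPM, and in null sham 48.7 against 42.7 CPM, where the interval of the ratio of 0.905–1.42 includes 1. For Col4a4 the ratio was 1.57 (1.05–2.29) in null PNX, and its interval includes 1 in null sham, control PNX and control sham. Within cells thinned to 2000 UMIs, Pearson correlations between members were at most 0.11 in size in each library, across cells that share a library and with mostly 0 or 1 UMI per gene. The pairs at 0.11, both in null PNX, were Lama3 with Lamb3 and Col4a3 with Col4a4. Lamb3 was seen in 45.7% of the 105 null PNX cells with a Lama3 UMI and in 28.9% of the others.

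Other cells that passed the sort were examined because matrix genes are made by many cell types. Cells with a Col1a2 UMI, no Ptprc or Pecam1 UMI and Sftpc under 2% numbered 22 in null PNX, 61 in null sham, 8 in control PNX and 12 in control sham. In these fibroblast-marked cells Npnt had 10.6 CPM (3 UMIs) in null PNX, against 642, 693 and 925 CPM in null sham, control PNX and control sham. Sparc had 4523, 2000, 3768 and 1261 CPM there, and Timp3 had 259, 1169, 1718 and 1472 CPM. The null PNX cells of this kind were few and deep (median 10818 UMIs), and Lama3 and Lamb3 had 3.54 and 17.7 CPM in them, against 30.3 and 175 CPM in the alveolar cells of that library. Cells with a Pecam1 UMI, no Ptprc or Col1a2 UMI and Sftpc under 2% numbered 27 in null PNX. In these, Lama3 had 84.2 CPM (16 UMIs) and Lamb3 had 252 CPM (48 UMIs), both above the alveolar levels. In such cells of the other libraries each gene had 11 UMIs or fewer. Cdh5, another endothelial marker, had 121 CPM in the null PNX cells with Pecam1, against 568, 887 and 684 CPM in those of null sham, control PNX and control sham. The source of Lama3 and Lamb3 in these null PNX cells was not tested. Alveolar sums held 116 Col1a1 UMIs in null PNX and 5, 4 and 3 in the other libraries. Of the 116, 98 came from Cldn4-positive cells. Scaled by the ratio of each gene to Col1a1 in the fibroblast-marked cells, these UMIs correspond to up to 4.81% of the alveolar Sparc UMIs, 3.52% of Timp3 and 0.852% of Npnt in any library. That scaling rests on Col1a1 alone, which did not follow the sum of the fibroblast markers. The part of fibroblast RNA in the alveolar levels was not tested. The 7 fibroblast markers summed to 22.7 CPM in null PNX, 44.8 in null sham, 4.84 in control PNX and 16.8 in control sham, with Col1a2 at 0 by the rule for cells and Lum and Dcn at 0 in both control libraries.

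In immune cells with Cldn4 at 0, a group formed after seeing that 47 of the 198 null PNX immune cells carried a Cldn4 UMI, the levels of the 9 genes stood in for free RNA. Lamb3 was at 17.0% of its alveolar level in null PNX, 51.6% in null sham, 26.3% in control PNX and 0% in control sham. Sparc was at 4.70% in null PNX, 15.03% in null sham, 13.5% in control PNX and 7.12% in control sham, and Npnt at 0%, 36.2%, 12.5% and 9.29% in null PNX, null sham, control PNX and control sham. All 9 genes were lower in these immune cells than in alveolar cells of the same library. These levels rest on 0 to 27 UMIs per gene and library, and the part of free RNA in the ratios was not tested. The limit on Cldn4 bears mostly on null PNX, since it kept 201 of 206 null sham immune cells and all those of both control libraries. Over all 198 null PNX immune cells the 9 genes were at 18.3% (Npnt) to 93.7% (Col4a3, 6 UMIs) of the alveolar level. Sparc was at 26.9% and Lamb3 at 44.6% there, and Lamb3 was at 63.6% over all 206 null sham immune cells.

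**Figure D5:**
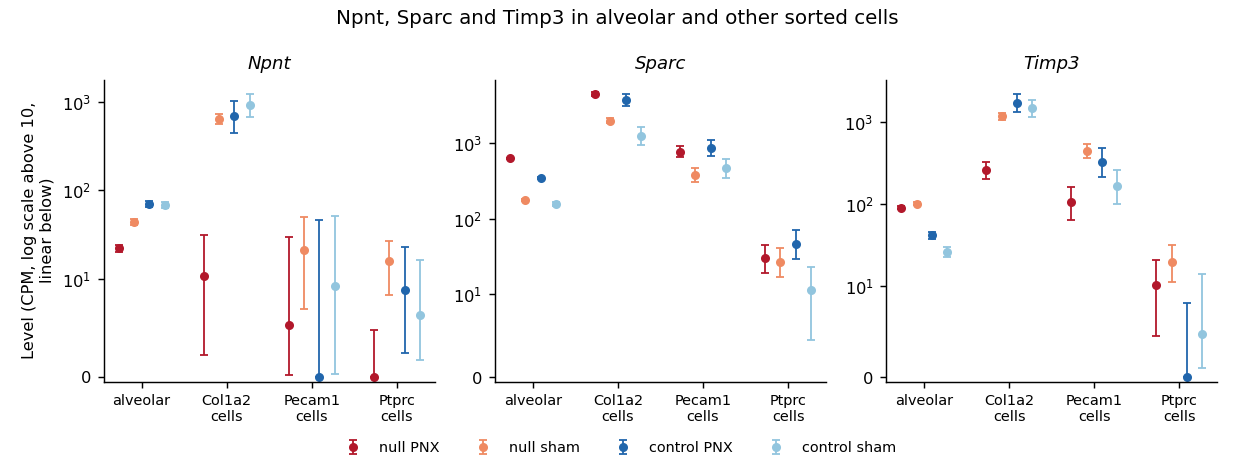
Points give CPM of Npnt, Sparc and Timp3 in alveolar cells and in cells marked by Col1a2, Pecam1 or Ptprc (the last with Cldn4 at 0), for the 4 libraries, on an axis that is linear below 10 and logarithmic above, with exact 95% Poisson intervals. Col1a2 cells have the highest Sparc in every library, up to 4523 CPM, and their Npnt is at 10.6 CPM in null PNX against 642 to 925 CPM in the other libraries.

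For each member, the 3 genes with the most similar pattern over the 4 libraries were found by the root mean square distance of centred log2 CPM, with 4 points each. Npnt and Col4a4 had the same 3 nearest genes, Gramd2, St6galnac2 and Cml1, with Gramd2 at 16.7, 31.2, 52.2 and 46.5 CPM in null PNX, null sham, control PNX and control sham (distances of 0.05 from Npnt and 0.04 from Col4a4). Lama5 lay nearest to Cldn3, a claudin of AT2 cells, at 1091, 799, 517 and 535 CPM (distance 0.01). Lamb3 lay nearest to Fam25c (0.22), Lama3 to Ptgr1 (0.28), Sparc to Ccng1 (0.16), Itga3 to Decr2 (0.02), Timp3 to Gm9844 (0.13) and Col4a3 to Mal2 (0.04).

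Around these members, 92 genes of matrix and adhesion lists were counted, 83 of them not members, and 40 of these reached 10 CPM. Of the 40, 17 were higher and 5 lower in null PNX over null sham, 6 and 3 in control PNX over control sham, 10 and 7 in null sham over control sham, and 17 and 8 in null PNX over control PNX. As shares these were 42.5% and 12.5%, 15% and 7.5%, 25% and 17.5%, and 42.5% and 20%. Over all genes tested the shares were 16.0% and 20.3%, 3.55% and 3.09%, 7.91% and 6.69%, and 20.8% and 21.7%. The lower share of the first comparison was thus under that of all genes, and the lower share of the last was close to that of all genes. The level for a call is a mean over the 4 libraries. Some genes, among them Spp1, Cyr61, Fn1, Itgb6 and Htra1, reached it only through null PNX. Spp1, Cyr61, Fn1 and Itgb6 are among the higher genes of both null PNX comparisons, and Htra1 is among those of null PNX over null sham. Those higher counts are thus in part set by the filter. Among the 3 called lower in control PNX were Fn1, with 1 UMI against 5 UMIs in control sham, and Spp1, with 7 against 8 UMIs, which reached the level for a call only through null PNX and whose intervals of the ratio include 1. The median relative log2 ratios were 0.40, 0.17, 0.14 and 0.27. The largest ratios of null PNX over null sham among the 40 were those of Spp1 and Cyr61. Spp1 (osteopontin) had 155 CPM in null PNX, against 0.833, 0.706 and 0.988 CPM in null sham, control PNX and control sham. Cyr61, a matricellular protein and known target of YAP, had 200 CPM, against 5.62, 9.38 and 8.64 CPM. Fn1 (fibronectin) had 55.4 CPM, against 5.14, 0.101 and 0.617 CPM, where the control values are 1 and 5 UMIs. Smoc2, a matricellular protein of basement membranes, ran the other way, at 3.72, 15.9, 16.3 and 46.3 CPM.

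In control PNX, Serpinh1, the collagen chaperone, had the largest ratio of these 40 genes, at 119 CPM against 47.2 CPM in control sham, with 118 CPM in null PNX and 60.9 in null sham. Hspg2, which encodes perlecan, had 27.9 CPM in control PNX and 14.6 in control sham, and was lower in both null libraries, at 11.5 CPM in null PNX and 8.75 in null sham. Agrn, which encodes agrin, had 23.3 CPM in null PNX, 10.6 in null sham, 21.2 in control PNX and 18.8 in control sham. The nidogen genes Nid1 and Nid2, which link laminin to collagen IV, had 3 UMIs or fewer in each library. Dst, a hemidesmosome linker, had 15.1, 47.7, 34.9 and 27.8 CPM, while Plec, which encodes plectin, had 78.1, 74.3, 32.8 and 28.5 CPM in null PNX, null sham, control PNX and control sham.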

How the data were processed

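Droplet-based single-cell RNA-seq of sorted GFP+ cells was measured in 4 libraries, 1 for each group. The deposited table holds raw UMI counts per gene and cell, not normalized by the authors, as its whole numbers of unequal cell totals show. Cell Ranger 2.1.0, Seurat 2.3.4 and mm10 are named, per the submitters' processing notes, without a role, and the authors' annotation is not stated in the labels. Barcode endings gave each cell's library, per the labels. Of 10077 cells, 9827 had at least 500 genes and at most 20% mitochondrial UMIs, and 7933 were alveolar. Counts were summed per library and scaled to CPM (Python 3.11.15, scipy 1.17.1), with 0.5 counts added for log2 ratios only. A floor of 3 counts was 0.145, 0.208, 0.303 and 0.370 CPM in null PNX, null sham, control PNX and control sham. Doublets were not called. Leaving out cells with Ptprc, Pecam1 or Col1a2 does not address doublets of alveolar cells with each other or with club or ciliated cells. The computation of ratios and calls was checked on simulated counts with known folds, which does not stand in for replicates. edgeR 4.0.16 and DESeq2 1.42.0 served for scaling alternatives only. The members and gene lists were chosen with earlier results of these data known. Named were all members, up to 4 list genes at each end of a comparison, list partners of members, and 3 nearest genes per member, of which the first is given for most. One gene of the matrix lists is not reported here and was left out of the counts.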

Additional observations from a re-analysis of the deposited data

Results flagged for a closer look

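With 1 library per group, the values in this section rest on opposite directions alone, and none of the differences was tested. Timp3 moved in opposite directions after PNX, with a relative log2 ratio of PNX over sham of -0.40 in null and 0.52 in control, a difference of -0.91. Mmp15, a membrane-type metalloproteinase, had -1.42 in null and 0.22 in control, a difference of -1.63. P4ha1, a subunit of the enzyme that hydroxylates collagen prolines, had -1.25 and 0.29, a difference of -1.54. For null over control, Cyr61 had a relative log2 ratio of 4.16 with PNX and -0.79 without, a difference of 4.96. Dst had -1.45 with PNX and 0.61 without, a difference of -2.06, Mmp15 had -1.11 and 0.51, a difference of -1.62, and Serpinh1 had -0.26 and 0.20, a difference of -0.45. Its CPM ratio of null PNX over control PNX was 0.991, so its negative sign there comes from the division by the median gene.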

How the results depend on the processing

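Counts of members called were recomputed under 19 alternatives, 17 planned and 2 added after seeing the data, and 136 of 152 stayed within 1.5 times the main count. Of 576 recomputed member ratios, 464 lay within the main 95% interval, 108 lay outside it, and 4 ratios of called members reversed in sign. Sign changes of members without a call are not among those 4. For example, Itga3 in null sham over control sham went from 0.50 to -2.32 with more marker genes excluded. Col4a3 in null PNX over control PNX went from -0.91 to 0.11 with cells of 4000 to 8000 UMIs. In control PNX over control sham the 3 higher became 5 with cells thinned to 2000 UMIs and with the CPM ratio as it is, both adding Itga3 and Timp3. In null PNX over null sham the 3 higher became 5 with cells of 4000 to 8000 UMIs only, and the 2 lower became 1 at a mean of 50 CPM. In null sham over control sham the 3 higher became 5 with the CPM ratio as it is, and the 2 lower became 1 with cells of 4000 to 8000 UMIs, with the CPM ratio as it is and at 50 CPM, and 0 past 2-fold. In null PNX over control PNX the 5 higher became 2 with Cldn4-negative cells, 3 at 50 CPM and 2 past 2-fold, and the 2 lower became 1 at 50 CPM. The planned exclusion of more marker genes included Lyz1, which 7832 of the 7933 alveolar cells carry, and left 96 cells in all, 15 to 36 per library. On those cells, with 42182 to 115706 UMIs per library, 7 members were higher and 1 lower in null PNX over null sham, and 1 was lower in control PNX over control sham. Lama3 reversed to -0.97 in control PNX over control sham and -2.32 in null sham over control sham, Timp3 to -0.49 in null sham over control sham and Col4a4 to 1.10 in null PNX over null sham. The share of all genes called is not given for this or the other alternatives. The recomputed counts therefore do not set the members apart from other genes. Without Lyz1 in the list of excluded markers, 7308 cells were left and all 8 counts stayed within 1.5 times. The Sparc call in null PNX over control PNX held in 10 of 16 alternatives, with relative log2 ratios of 0.18 to 0.88. No paired analysis was possible because each group is 1 library. Depth limits Col4a3, which had 66 to 107 UMIs per library, and control sham Lama3, which had 22. For the other changes the cause was not tested.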
